A study of Mus musculus with 12 samples.

Results

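Expression of 10 genes of the actin cytoskeleton was compared between thymocytes of C57BL/6 mice and those of mice transgenic for the AND T cell receptor (AND-TCR). They encode the cytoplasmic actins (Actb, Actg1), the monomer-binding proteins profilin 1 (Pfn1), thymosin beta 4 (Tmsb4x) and thymosin beta 10 (Tmsb10), the filament turnover proteins cofilin 1 (Cfl1) and coronin 1A (Coro1a), the bundling protein L-plastin (Lcp1), and the upstream regulators WASP (Was) and Rac2. The members were all probe sets whose only annotated symbol is 1 of these 10 genes, of 15965 genes that a probe set names alone. There were 32 such probe sets among 36899, of which 18 are Affymetrix control probe sets for Actb. Of the 14 others, 13 passed the filter on low values, and these covered all 10 genes.

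The study asked which genes are highly expressed in thymocytes undergoing positive selection. The control group was total thymocytes of adult C57BL/6 mice, which carry no transgene and select T cells of many specificities. The other was total thymocytes of adult AND-TCR–transgenic mice on the H-2b background, in which a single rearranged T cell receptor restricted to MHC class II is positively selected. Each group was hybridized in duplicate to 3 Affymetrix array types, U74Av2, U74Bv2 and U74Cv2, which gave 12 arrays. Both groups were unsorted, and the labels give neither the number of mice behind an RNA nor the promoter of the transgene. Nor do they say whether the first and second hybridization came from separate mice, and the study's methods speak only of 2 independent experiments. The p-values set the group difference against the spread between duplicate hybridizations, pooled in part with that of other probe sets. That spread may be technical.

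Actin exists as monomers and as filaments that grow at one end and shrink at the other. Thymosins hold monomers in reserve, profilin delivers them to growing ends, cofilin and coronin take old filaments apart, WASP starts branched filaments through the Arp2/3 complex, and plastins bundle filaments. In T cells this machinery drives migration and shapes the contact through which the T cell receptor meets its ligand, and Was, Coro1a, Rac2 and Lcp1 are largely restricted to blood cells.

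Values are intensities on a linear scale, scaled per array by the authors to a trimmed mean of 1000. A detection limit of 2 noise SDs was 420.8 on U74Av2, 869.4 on U74Bv2 and 1579 on U74Cv2, where the noise SD comes from the negative values. Between 23.2% and 48.9% of probe sets on an array lay above it. The thymocyte markers Cd3e and Thy1 were above the limit on all 4 U74Av2 arrays, as were 10 of 11 markers of the thymocyte list. The list summed to 214873 and 216575 in C57BL/6 and to 124694 and 139743 in AND-TCR thymocytes. The lower sum lay partly with genes of the immature stages such as Rag1, at 33114 and 28353.2 against 6545 and 6313. It lay also with the coreceptor chain Cd8b1, at 33501.6 and 33034.8 against 13142.9 and 14473.2. Cd8a, Cd4 and Thy1 were lower on both AND-TCR arrays too, whereas the receptor chain Cd3g read 10604.3 and 11655.7 against 12667.9 and 12068.1. The B cell list summed to 24514.4 and 25375.2 against 21172.8 and 22147.1, most of it Ighm, while Blk read 1923.7 and 375.3 against 3495.6 and 4127.4. Of the 4 red blood cell markers only 2 were on U74Av2. Of these, Hba-a1 read 9709.3 and 11407.2 against 6639.4 and 4378.1, and Alas2 was under the limit on all 4 arrays. The part of these differences in the member values was not tested. Differences in the share of a cell type and in RNA per cell cannot be told apart in these bulk samples. The fluidics module was one for every C57BL/6 array and another for every AND-TCR array, and it cannot be told apart from the group. Sex, read from its transcripts below, also differed with the group and cannot be told apart from it. Arrays with the same hybridization number were hybridized on the same day in both groups, so the ratio in each experiment is a comparison within a day.

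Thymosin beta 10 separated the groups most. Tmsb10 (98129_at) read 21636.3 and 20979.9 in the first and second C57BL/6 hybridization and 41871.5 and 42054.1 in the first and second AND-TCR hybridization. The means were 21308 ± 464 and 41963 ± 129 (SD, n = 2 each), with both AND-TCR arrays far above both C57BL/6 arrays. Levels of Tmsb10 differed by 1.97-fold, AND-TCR being higher (log2 fold change 0.98, SE 0.13, limma adjusted p = 0.0255), with ratios of 1.94 (first experiment) and 2.00 (second). It was the only 1 of the 13 tested member probe sets to pass the test, where 0.483% of all 12845 tested probe sets were called higher and 1.05% in either direction. Leaving out any 1 of the 4 arrays ended this call, with adjusted p between 0.189 and 0.434 and log2 fold changes between 0.96 and 1.0001, and no probe set of any gene was called with an array left out.

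Tmsb4x encodes the paralog thymosin beta 4, which binds actin monomers in the same way. Tmsb4x (96426_at) read 25008.9 and 27168.2 in C57BL/6 and 33462.6 and 32865.6 in AND-TCR thymocytes. The groups did not overlap, with ratios of 1.34 and 1.21 in the 2 experiments, but the log2 fold change of 0.35 (SE 0.13) did not pass the test (limma adjusted p = 0.313). The log2 ratio of Tmsb10 exceeded that of Tmsb4x by 0.53 in the first experiment, by 0.73 in the second, a difference that was not tested. Tmsb4x and Was lie on the X chromosome, and the groups also differed in transcripts that mark sex. Xist (99126_at) read 2878.3 and 3001.2 in C57BL/6 and -52.8 and -98.6 in AND-TCR thymocytes. The Y-linked gene Eif2s3y (103674_f_at) read -109.9 and 13 against 1649.2 and 1528.8. Kdm5d, also Y-linked, read -18 and -127.3 against 2896.9 and 2867.7 at 105120_f_at. At 100272_at and 105119_i_at it was under the limit on all 4 arrays. A further Xist probe set (105303_at) did not show the difference and exceeded the limit only on the second AND-TCR array, at 1190.4. At 99126_at, 103674_f_at and 105120_f_at the C57BL/6 RNA thus read as female and the AND-TCR RNA as male. Sex therefore cannot be told apart from the group at any probe set, Tmsb10 included. The part of this difference in the values of Tmsb4x, Was or any other gene was not tested.

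The promoter windows of the 2 thymosin genes are shown because these paralogs differ in how far they lay apart between the groups. They are RefSeq sequences of build GRCm38.p6, from 250 bases before to 50 bases after an annotated start, with matches to GGGCGG on either strand in capitals. Tmsb10 has 3 such windows that overlap, and the one shown is the most downstream in the gene's direction, at chr6:72958183-72958482 on the minus strand. The Tmsb4x window is chrX:167209169-167209468, also on the minus strand.
Tmsb10: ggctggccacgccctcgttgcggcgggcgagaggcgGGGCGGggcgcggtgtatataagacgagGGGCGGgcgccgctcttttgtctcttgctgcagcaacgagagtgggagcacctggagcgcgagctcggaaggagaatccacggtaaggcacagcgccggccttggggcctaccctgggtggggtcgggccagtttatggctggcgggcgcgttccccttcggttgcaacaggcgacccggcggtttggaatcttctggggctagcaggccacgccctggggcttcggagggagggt
Tmsb4x: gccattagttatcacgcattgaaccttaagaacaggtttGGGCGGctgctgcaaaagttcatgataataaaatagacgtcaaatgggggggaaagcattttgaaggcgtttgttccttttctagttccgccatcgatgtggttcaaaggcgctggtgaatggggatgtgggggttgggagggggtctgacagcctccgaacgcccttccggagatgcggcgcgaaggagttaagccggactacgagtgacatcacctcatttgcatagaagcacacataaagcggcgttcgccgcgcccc
The letters GGGCGG, the core of the site bound by Sp1, stand in both windows. TATAA stands in the Tmsb10 window shown, but neither in the other Tmsb10 windows nor in that of Tmsb4x. RefSeq windows were found for 8 of the 10 genes, 12 in all. Actb and Rac2 had no window, so their promoters were not searched. GGGCGG was in 10 of these 12 windows, from 7 genes, and in 35.7% of all 32851 mouse windows of the same length. TATAA was in 2 of the 12 windows and in 24.9% of all. Both strands were searched, and a match is a description of the letters only.

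Profilin 1 and L-plastin came next. Pfn1 (96070_at) read 6738.6 and 6136.6 in C57BL/6 and 9066.7 and 9268.8 in AND-TCR thymocytes, with no overlap and ratios of 1.35 and 1.51. Its log2 fold change was 0.51 (SE 0.14, limma adjusted p = 0.165). Lcp1 (94278_at) read 8637.2 and 10640.5 against 12862.1 and 14656.1, again without overlap, at a log2 fold change of 0.52 (SE 0.16, limma adjusted p = 0.206). The other Lcp1 probe set (101327_at) lay near the limit and did not show this difference. It read 853 and 895.2 in C57BL/6 and 770.5 and 971.3 in AND-TCR thymocytes, so that the groups overlapped. Lcp1 is also expressed in macrophages, whose 8 markers summed to 3172 and 4638.4 in C57BL/6 and 5388.6 and 4882.6 in AND-TCR thymocytes, with Adgre1 and Itgam under the limit on all 4 arrays. The part of these cells in the Lcp1 values was not tested.

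**Figure D1:**
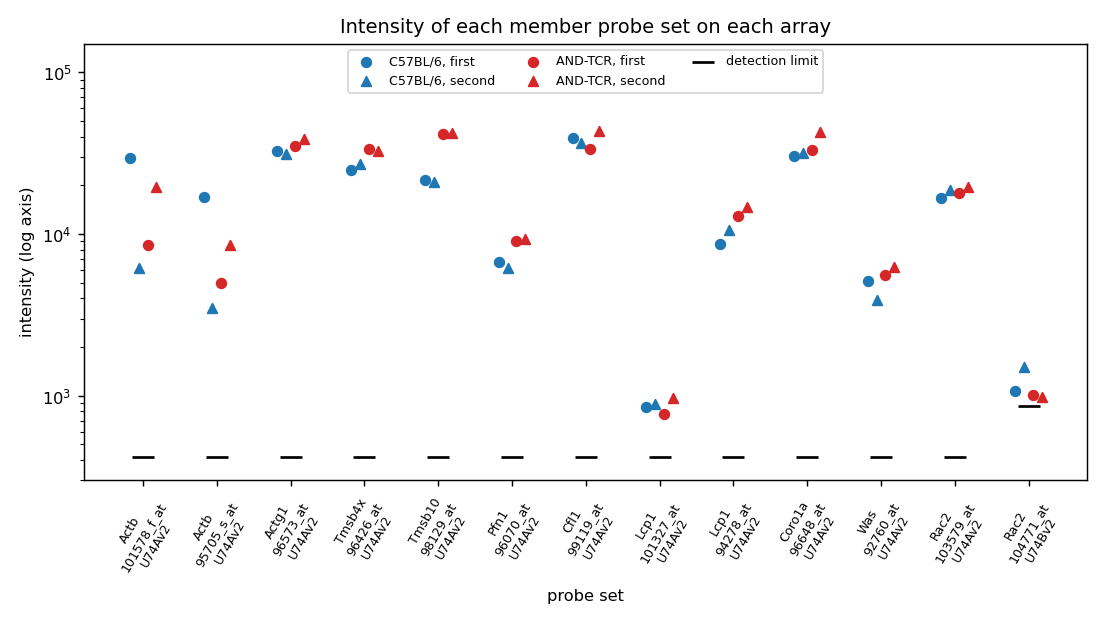
Intensity (log axis) of the 13 tested member probe sets (horizontal axis) on the 4 arrays of their type, with circles for first and triangles for second hybridizations, blue for C57BL/6, red for AND-TCR thymocytes and a bar for the detection limit. Both Tmsb10 values of AND-TCR thymocytes, 41871.5 and 42054.1, sit well above those of C57BL/6, while the 2 Actb probe sets spread widely within each group.

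Neither of the members that take filaments apart passed the test. Cfl1 (99119_at) read 39577.9 and 36818 in C57BL/6 and 33488.6 and 43241.5 in AND-TCR thymocytes, so that both C57BL/6 values lay between the AND-TCR ones. Its log2 difference was close to 0 with a 95% interval from -0.40 to 0.39 (limma adjusted p = 0.995). Coro1a (96648_at), an Arp2/3-binding protein needed for T cell survival and migration, read 30521.1 and 31789.4 against 33328.7 and 42908.7. The groups did not overlap, yet the log2 fold change of 0.28 (SE 0.16) did not pass the test (limma adjusted p = 0.519). A further Coro1a probe set on U74Cv2 (167496_at) lay under the limit on all 4 arrays and was not tested.

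Of the upstream regulators, Was (92760_at) read 5122.2 and 3935.4 in C57BL/6 and 5612 and 6295.6 in AND-TCR thymocytes. Its ratios of 1.10 and 1.60 differed between the experiments, and its log2 fold change was 0.40 (SE 0.18, limma adjusted p = 0.394). Rac2, a GTPase of blood cells, read 16759.4 and 18747.9 against 17938.7 and 19666.9 at its brighter probe set (103579_at), and the groups overlapped. The 95% interval of this log2 difference ran from -0.24 to 0.41. The Rac2 probe set on U74Bv2 (104771_at) lay just above the limit and read 1066.5 and 1496.2 against 1005.6 and 976.1, with a log2 fold change of -0.35 (SE 0.22, limma adjusted p = 0.570). It was the only tested member probe set at which C57BL/6 was higher in both experiments.

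**Figure D2:**
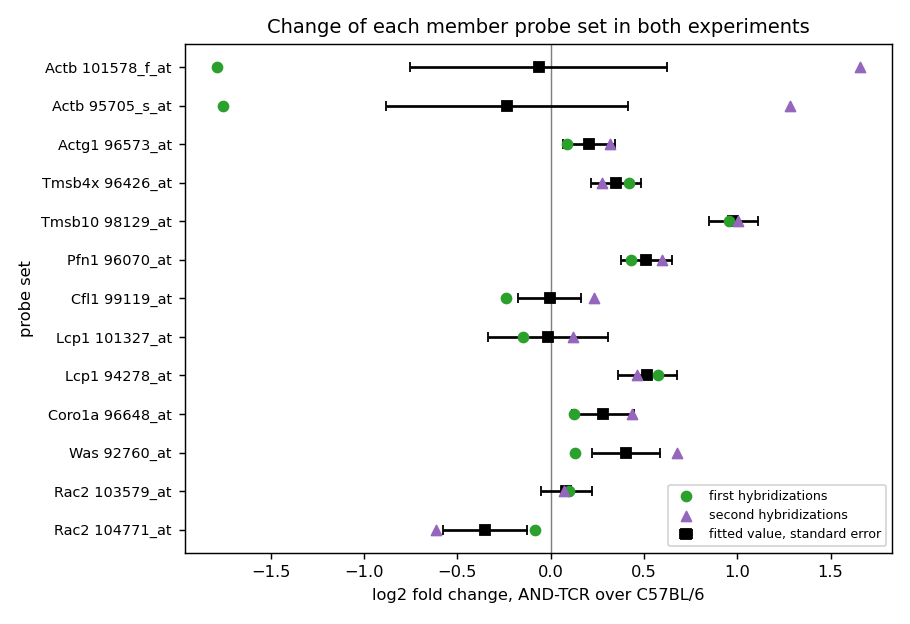
Log2 ratio of AND-TCR to C57BL/6 thymocytes (horizontal axis) for each tested member probe set (vertical axis), in the first (circle) and second (triangle) experiment, with the fitted value and its standard error (square and bar). Tmsb10 sits near 1 in both experiments, whereas the 2 Actb probe sets lie far below 0 in the first and far above 0 in the second.

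Gamma actin did not pass the test either. Actg1 (96573_at) read 32876.7 and 31080 in C57BL/6 and 34925.8 and 38793.8 in AND-TCR thymocytes, which did not overlap. The log2 fold change was 0.20 (SE 0.14, limma adjusted p = 0.588). Its promoter is shown because it was the only member window with a CArG box, the site of serum response factor, a known regulator of actin genes. The window is chr11:120348446-120348745 on the minus strand, with the CArG box in capitals.
Actg1: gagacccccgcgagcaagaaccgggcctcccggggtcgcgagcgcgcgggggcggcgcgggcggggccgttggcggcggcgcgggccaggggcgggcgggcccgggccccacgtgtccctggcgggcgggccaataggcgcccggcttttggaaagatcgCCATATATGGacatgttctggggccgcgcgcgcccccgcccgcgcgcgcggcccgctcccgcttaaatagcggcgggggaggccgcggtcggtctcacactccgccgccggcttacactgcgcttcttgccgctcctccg
A CArG box was in 1 of the 12 member windows and in 1.63% of all windows. Whether the promoters of Actb and Rac2 hold one was not examined, for lack of a window. A CArG box can hold TATAA within it, which the Actg1 match does not.

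Beta actin gave opposite answers in the 2 experiments at both of its probe sets outside the controls. Actb (101578_f_at) read 29537.7 in the first and 6180.8 in the second C57BL/6 hybridization, and 8545.2 and 19513.1 in AND-TCR thymocytes. The ratio of AND-TCR over C57BL/6 thymocytes was thus 0.289 in the first experiment but 3.16 in the second. Actb (95705_s_at) read 16916.8 and 3512.2 against 5013.9 and 8549, with ratios of 0.296 and 2.43. At both, the first C57BL/6 and the second AND-TCR array were high and the other two low. The fitted log2 fold changes were -0.07 (SE 0.69) and -0.24 (SE 0.65), with adjusted p = 0.982 and 0.914 from limma. Without the first C57BL/6 array they were 1.06 and 0.90, and without the second C57BL/6 array -1.19 and -1.37. That first array, on U74Av2, was marked in its run record as scanned again, and no array of the other types was. The part of the second scan in these values was not tested. Leaving out the first AND-TCR array gave 0.53 and 0.15, and leaving out the second gave -0.66 and -0.62.

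The control probe sets for Actb did not show this. They target the 5′ part, the middle and the 3′ part of the transcript and are repeated on each array type, so the 9 sets that detect the transcript strand (suffix at) measure the same RNA and are not independent. On U74Av2 the 3′ set read 81199.8 and 98108.9 in C57BL/6 and 91455.9 and 125362 in AND-TCR thymocytes. All 9 were higher in AND-TCR thymocytes in both experiments, by 1.13- to 1.71-fold in the first and 1.07- to 1.28-fold in the second, and the groups did not overlap at 8 of the 9. When the controls were kept in the fit, their log2 fold changes lay between 0.26 and 0.49 and none passed the test (adjusted p between 0.343 and 0.672 from limma). The ratio of the 3′ to the 5′ set lay between 1.20 and 1.44 on all 12 arrays.

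The pattern of the 2 Actb probe sets did appear in some kinds of control probe sets. The 9 Actb controls of the opposite strand (suffix st) all had the first C57BL/6 and second AND-TCR array above the other two, for example 1923.3, 494, 552.2 and 2013.1 at the middle position on U74Av2, in the order first and second C57BL/6, first and second AND-TCR. The 9 controls for 18S ribosomal RNA had the same order, with 5702.9, 616.1, 1444.6 and 4930.3 at the 3′ set on U74Av2, although both high arrays were above the limit at only 7 of them. The 9 opposite-strand Gapdh controls had it too, with both high arrays above the limit at 8. The order was seen at none of the 9 Actb controls of the transcript strand, at 1 of the 9 such Gapdh controls, at 11 of 27 opposite-strand controls for spiked transcripts and at 3 of 21 other controls. Some of these spiked and other controls had a high array under the limit. Of all tested probe sets on U74Av2, 14.1% had both of these arrays above the other two.

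The size of this crossed difference was taken as the mean log2 value of the first C57BL/6 and second AND-TCR array minus the mean of the other two. It was 1.72 and 1.52 for the 2 Actb probe sets, and between -0.27 and 0.27 for the other 11 tested member probe sets. Of 5573 probe sets tested on U74Av2, 4 were at least as high as the first, itself included, and 7 as high as the second. The probe sets nearest to Actb (101578_f_at) in their values centred over the 4 arrays were Chrne (92967_r_at), Actb (95705_s_at), Klf13 (103369_at), Rps28 (98086_r_at) and Mki67 (161931_r_at), with root mean square differences of 0.134, 0.172, 0.285, 0.310 and 0.367 on the log2 scale. Chrne, which encodes a subunit of the muscle acetylcholine receptor, read 2732.6, 695.1, 979.2 and 2266.4. The pattern was noticed after the values were seen, and its cause was not tested.

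**Figure D3:**
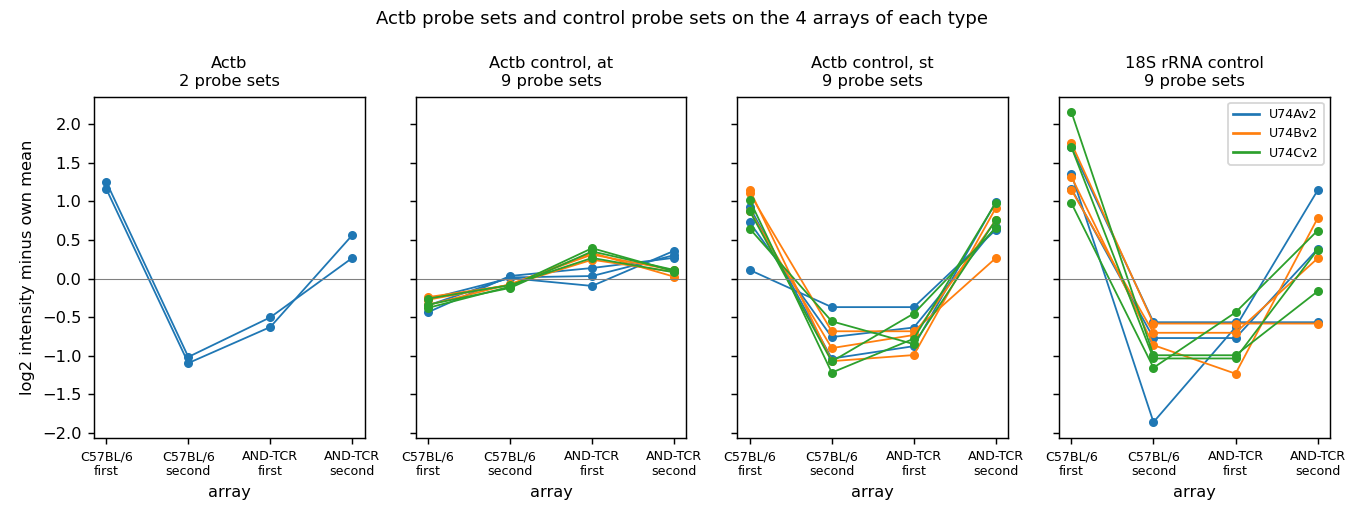
Log2 intensity minus the probe set's own mean over the 4 arrays (vertical axis) on each array (horizontal axis), for the 2 Actb probe sets, the 9 Actb controls of the transcript strand, the 9 of the opposite strand and the 9 controls for 18S ribosomal RNA, with values under the limit set to it and colors for the array type. The Actb probe sets, the opposite-strand controls and 7 of the 9 controls for 18S are high on the first C57BL/6 and second AND-TCR array, and the transcript-strand controls are not.

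The actins of muscle share much sequence with Actb, and their probe sets did not follow it either. Actg2 (93102_f_at) read 9634 and 17010.3 in C57BL/6 and 14353.2 and 13814.2 in AND-TCR thymocytes, and Actc1 (101029_f_at) 882 and 2119.6 against 1604.5 and 1717.3. At both, the first C57BL/6 array was the lowest. The smooth muscle markers Acta2, Tagln and Myh11 were under the limit on all 4 U74Av2 arrays, and so were 5 of the 7 markers of stroma and smooth muscle.

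Of the 13 tested member probe sets, all above the limit on all 4 arrays, 8 were higher in AND-TCR thymocytes in both experiments. Of the rest, 1 was lower in both and 4 were mixed. A fitted log2 fold change above 0 was found at 8 of the 13, where 52.0% of all tested probe sets had one. The AND-TCR values lay above those of C57BL/6 without overlap at 7, where 23.0% of all tested probe sets did so, and below them at 1, where 21.4% did. An unadjusted p under 0.05 was reached by 4 (Tmsb10, Tmsb4x, Pfn1 and Lcp1 at 94278_at), all higher, beside 7.47% of all tested. The median log2 fold change was 0.20 for the members and 0.02 for all tested probe sets. The member median was 0.10 without the second AND-TCR array and 0.33 without the first. Tmsb10 was also the only member called with the hybridization number as a block, where 2.33% of all tested probe sets were called, and with the crossed pairing, where 3.56% were. On U74Av2, 10 of the 12 tested members were in the brightest 558 probe sets, which had a median of 0.02. Of those 558, 27.1% had the AND-TCR values above those of C57BL/6 without overlap.

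The rest of the actin machinery was taken from 5 lists of 90 genes, of which 65 were tested, each at its tested probe set with the highest mean. Of these 65 genes, 49 had a log2 fold change above 0 and 16 below, with a median of 0.17, where 52.0% of all tested probe sets were above 0. The only gene that passed the test was Fmnl2, a formin that elongates filaments, and it was lower, as were 0.568% of all tested probe sets. Fmnl2 (113743_at) read 3871.1 and 3859.7 in C57BL/6 and 1001.3 and 1002.8 in AND-TCR thymocytes, a log2 difference of -1.95 (SE 0.26, limma adjusted p = 0.0438). Its AND-TCR values lay just above the limit of 869.4, and with the floor at 2 times the limit the difference was -1.15 (limma adjusted p = 0.236). The call was also lost with no trend in the prior variance (limma adjusted p = 0.0703) and with any 1 array left out (between 0.212 and 0.403). At an unadjusted p under 0.05, 11 genes were higher and 3 lower, beside 7.47% and 6.51% of all tested probe sets.

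At these probe sets none of the 9 tested genes of the Arp2/3 complex and its activators reached an unadjusted p under 0.05, and 8 had values above 0. Their median was 0.26, but 0.12 over all tested probe sets of the list. The subunit Arpc5l had 0.06 at its brightest probe set, on U74Cv2, and -0.89 (SE 0.36, limma adjusted p = 0.339) at the other, on U74Av2. The latter, named after its values were seen, had an unadjusted p under 0.05. Intensities differ in scale between these array types, so which of the probe sets is brighter is uncertain. The largest value at the brightest probe sets was 0.43 for the subunit Arpc4, which differed between the experiments with ratios of 0.965 and 1.88. Nckap1l, a part of the WAVE complex, had 0.38 on U74Bv2 and -0.12 at its other tested probe set.

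Among 17 genes for monomer binding, capping and severing, the median was 0.17 and 4 were higher at an unadjusted p under 0.05. The cofilin phosphatase Ssh2, which activates cofilin, came closest to the threshold. Ssh2 (115476_at) read 7750.7 and 7581.5 against 11472 and 12407.8, at a log2 fold change of 0.64 (SE 0.10, limma adjusted p = 0.0658), and its other probe set (107435_at) gave 0.55. Ssh2 passed in several alternatives, among them quantile normalization and median centring. These called 179 and 243 of 12845 tested probe sets, beside 135 in the main fit. With the hybridization day as a block Ssh2 did not pass (limma adjusted p = 0.109). Dstn, a paralog of cofilin, had 0.67 (SE 0.38, limma adjusted p = 0.502). The other 3 under that p, Coro7, Tmod3 and Gsn, were named after their values were seen and had 0.34, 0.44 and 0.54.

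The 14 filament linkers and elongators spread most, from Fmnl2 to Evl. Evl, which with Vasp protects growing filament ends from capping, read 1066.6 and 619.3 in C57BL/6 and 2337.8 and 2006.3 in AND-TCR thymocytes at 160667_at. Its log2 fold change was 1.41 (SE 0.36, limma adjusted p = 0.146), and its other probe set gave 1.13. With the hybridization day as a block, where 2.33% of all tested probe sets were called, Evl passed the test at 160667_at (limma adjusted p = 0.0460). Vasp, the membrane linker moesin (Msn), the cross-linker Actn1 and the adaptor Fyb, named after their values were seen, had 0.66, 0.68, 0.64 and 0.29, all with an unadjusted p under 0.05. With that block Vasp, Msn and Actn1 also passed, at limma adjusted p of 0.0339, 0.0162 and 0.0245. Actn1 gave 0.04 and 0.74 at its other tested probe sets.

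Ezr, the paralog of moesin, had -0.39 and was also named after its values were seen. Among the 10 tested myosins and tropomyosins, the median was 0.10, or 0.17 over all their tested probe sets. Tropomyosin 4 (Tpm4), which wraps along filaments, read 3373 and 3952.8 against 6057.3 and 6539.9, at 0.79 (SE 0.16, limma adjusted p = 0.0877). With the block, which called 2.33% of all tested probe sets, it passed the test (limma adjusted p = 0.0221). The myosin light chain Myl6 had 0.49 (limma adjusted p = 0.214). The motor Myo1c read 1016.5 and 1156.8 against 569.7 and a value under the limit (-301), and it was named after its values were seen.

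**Figure D4:**
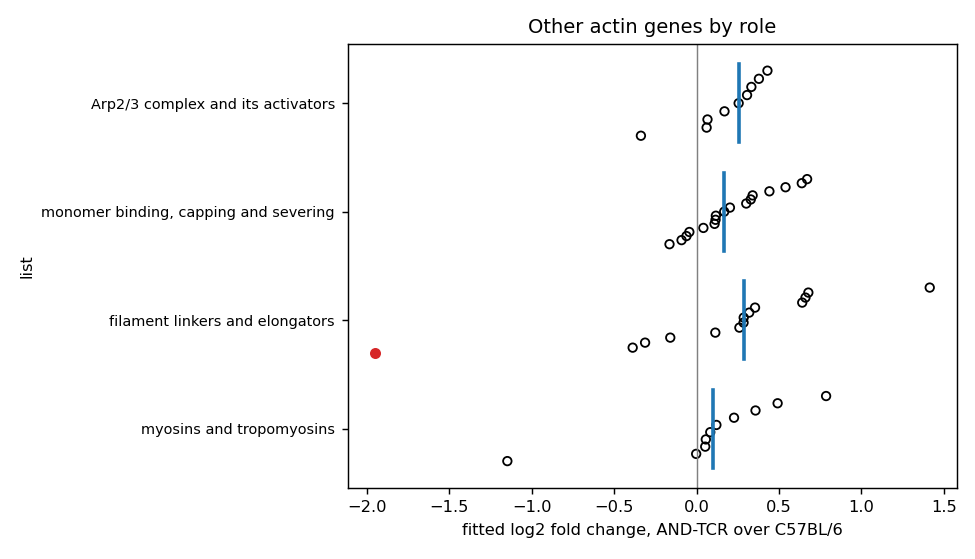
Fitted log2 ratio of AND-TCR to C57BL/6 thymocytes (horizontal axis) of 50 tested genes in 4 of the lists (vertical axis), 1 point per gene at its brightest tested probe set, red where the adjusted p was under 0.05, with a blue line at each list's median. Medians lie between 0.10 and 0.29, and Fmnl2 at -1.95 is the only gene that passed the test.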

How the data were processed

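Total RNA of thymocytes had been reverse-transcribed, transcribed into biotinylated cRNA and hybridized by the authors, who processed the scans with Microarray Suite 4.0. The deposited tables hold linear intensities, which were negative in 20.1% to 37.8% of probe sets per array, with a trimmed mean of 1000 on every array after dropping 2% at each end. The sources used here do not state how that scaling was set. No further scaling was applied. The noise SD was the median size of the negative values divided by the 75th percentile of the standard normal distribution. Values under 2 noise SDs were set to that limit and taken to log2. Testing required that a group (either or both) exceeded the limit on both of its arrays, and this left 12845 probe sets (5573, 4583 and 2689 on U74Av2, U74Bv2 and U74Cv2). The 66 control probe sets per array type were left out of the fit.

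Groups came from the sample titles. They were compared with limma 3.58.1 in R 4.3.3 (lmFit, then eBayes with a trended prior variance), fitted separately to each array type, with Benjamini-Hochberg adjustment over all 3 array types. The fit was tested on simulated data. The number of arrays limits the precision, and levels were compared between array types only to pick the probe set of a related gene. Gene names are those of the platform annotation. It assigns a single symbol to 29197 probe sets, more than 1 to 724, and no symbol to 6978. A related gene was taken at its tested probe set with the highest mean. Named were every member probe set, the called related genes, the 2 largest changes per related list among genes above the limit on all 4 arrays, and the 5 probe sets nearest to Actb. The genes of 1 related list count in the totals and are not reported here by themselves. Members and lists were chosen with earlier results of these data known. Alternatives were a replicate block, other floors and filters, quantile and median normalization, no trend, controls kept, the mean over a gene's probe sets, and each array left out. Figures used matplotlib 3.10.9.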

Additional observations from a re-analysis of the deposited data

How the results depend on the processing

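The count of member probe sets called fell from 1 to 0 with the floor at 2 times the limit, with no filter, with no trend in the prior variance and with any 1 array left out (range 0 to 0). In all of these Tmsb10 kept a log2 fold change between 0.96 and 1.0001, and the adjusted p from limma over all alternatives lay between 0.000446 and 0.434. At 2 times the limit no probe set of any gene was called, where 1356 had an unadjusted p under 0.05, and with 1 array left out none was called, where 1290 to 1969 did. With a group left at 1 array, that array was assumed to vary like the others. With no trend 10 of 12845 tested probe sets were called, and with no filter 815 of 36701.

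The count of related genes called was 1 and became 0 with the higher floor, with no trend and with any 1 array left out (range 0 to 0), 2 with the floor halved, with only probe sets that all 4 arrays detected and with median centring, and 3 with quantile normalization and with no filter, which also moved their median from 0.17 to 0.10. The calls over all tested probe sets moved too, from 135 in the main fit to 0 with the higher floor and 10 with no trend. They numbered 270 with the floor halved, 243 with median centring and 179 with quantile normalization. With only probe sets that all 4 arrays detected, 256 of 10053 were called, and 59 related genes were tested. With no filter 815 of 36701 were called, and 82 related genes were tested in place of 65. In the fit with no filter, many probe sets sat at the limit on all 4 arrays and had no residual variance. For that fit limma warned that it was unreliable.

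Arrays with the same hybridization number shared a hybridization day, but their deviations from the group means correlated at only 0.04, -0.12 and -0.23 on the 3 array types. With the number as a replicate block, 299 probe sets were called in place of 135, 1 of them a member and 6 related genes (Actn1, Evl, Fmnl2, Msn, Tpm4 and Vasp). With the crossed pairing, chosen after seeing the data, 457 were called, 1 member and 7 related genes among them.

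The values that changed sign were all far from the threshold. Lcp1 (101327_at) became 0.0491 with the higher floor and ranged from -0.18 to 0.15 with 1 array left out. The same ranges were -1.19 to 1.06 for Actb (101578_f_at), -1.37 to 0.90 for Actb (95705_s_at) and -0.19 to 0.18 for Cfl1. The cause of these changes was not tested.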
